A study of Mus musculus with 12 samples.

Results

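The genes that build the lysosomal proton pump and the signalling platform on the lysosome were followed in mouse macrophages that had taken up dying melanoma cells. The set was chosen by name, with earlier results of these data known. It holds 33 genes of the 55604 counted: 15 of the V-ATPase, the 3 transcription factors Tfeb, Tfe3 and Mitf, the calcium channel Mcoln1, 5 Ragulator genes, 3 Rag GTPases, 3 of the folliculin complex, Mtor and Rptor, and Gpnmb. All 33 were among the 16406 genes tested. Bone marrow-derived macrophages were grown from C57BL/6 marrow with M-CSF, their survival and growth factor, at 20 ng/ml, and were used on day 7. They were given corpses of B16-F10 cells that overexpress STC1, a secreted glycoprotein (STC1OE corpses), corpses of control B16-F10 cells (control corpses), or nothing (macrophages alone). B16-F10 is a melanoma cell line from C57BL/6 mice. Corpses were given at 5 per macrophage, culture with them lasted 20 h, and corpses that had not bound were washed off. For macrophages alone no such culture time is recorded here. Each group had 4 libraries of total cell RNA, from independent experiments per the series' design text. How the corpses were made, which vector the control cells carried and how many clones each line held are not stated in the sources used here.

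The V-ATPase is a rotary pump. Its membrane-embedded V0 sector carries protons into the lysosome, and its cytosolic V1 sector burns ATP to drive the rotation. The same surface holds Ragulator and the Rag GTPases, which recruit the kinase complex mTORC1 when amino acids are plentiful. Active mTORC1 phosphorylates Tfeb, Tfe3 and Mitf and keeps them in the cytosol. When it is inactive, or when calcium leaves the lysosome through Mcoln1 and activates calcineurin, these factors enter the nucleus and switch on lysosomal genes through an E-box motif, the CLEAR element. A macrophage that digests a corpse depends on acid lysosomes, and it gains amino acids, lipids and nucleotides from the meal. These control steps act largely on proteins, which messenger RNA levels do not measure.

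The promoters of several members hold the core of the element that these factors bind, and 5 of them are shown because they come from the pump, the channel, Ragulator and the Rags. RefSeq promoter windows on GRCm38.p6, which reach from 250 bases before the start site to 50 after it, were found for 28 of the 33 members. Each line gives 150 bases before the start site and 20 bases from it on, 5′ to 3′, and capitals mark each CACGTG.
Mcoln1 (chr8:3500369-3500538, plus strand): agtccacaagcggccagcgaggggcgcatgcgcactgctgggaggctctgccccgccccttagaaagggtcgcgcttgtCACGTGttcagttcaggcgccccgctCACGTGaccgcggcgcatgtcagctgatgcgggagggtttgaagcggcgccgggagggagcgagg
Atp6v0d1 (chr8:105566045-105566214, minus strand): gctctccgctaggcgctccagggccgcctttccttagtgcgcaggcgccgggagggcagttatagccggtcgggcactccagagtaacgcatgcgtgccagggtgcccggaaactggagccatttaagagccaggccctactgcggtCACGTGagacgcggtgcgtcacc
Atp6v1a (chr16:44139240-44139409, minus strand): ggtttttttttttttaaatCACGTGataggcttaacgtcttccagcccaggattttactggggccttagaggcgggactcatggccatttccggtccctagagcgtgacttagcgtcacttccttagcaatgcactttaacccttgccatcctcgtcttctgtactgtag
Lamtor4 (chr5:138255332-138255501, plus strand): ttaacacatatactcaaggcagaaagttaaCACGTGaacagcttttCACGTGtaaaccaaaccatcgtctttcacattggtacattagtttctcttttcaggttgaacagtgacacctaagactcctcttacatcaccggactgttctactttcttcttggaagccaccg
Rragc (chr4:123917283-123917452, plus strand): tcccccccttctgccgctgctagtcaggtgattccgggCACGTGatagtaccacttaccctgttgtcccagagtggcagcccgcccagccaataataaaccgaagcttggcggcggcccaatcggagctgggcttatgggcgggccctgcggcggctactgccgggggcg
Mcoln1 and Lamtor4 each hold the hexamer at 2 places, and in Atp6v0d1 it lies across the start site. Searched in the 300-base windows, CACGTG, which reads alike on both strands, was in 9 of 28 members (32.1%), against 11.6% of the 10353 tested genes with a window and 8.09% of all 27025 windows. The 9 were Atp6v0b, Atp6v0d1, Atp6v0e, Atp6v1a, Fnip1, Lamtor1, Lamtor4, Mcoln1 and Rragc. TCACGTGA, which contains that hexamer, was in 4 of the 28, namely Atp6v0d1, Atp6v0e, Atp6v1a and Mcoln1 (14.3%, against 2.14% of tested genes). The longer palindrome with a G before and a C after those letters was in 0 of 28 members and in 0.802% of tested genes. CATGTG on either strand, another E-box, searched after the others had been seen, was in 3 of 28 (10.7%), against 11.0% of tested genes. These are matches of letters in short windows and not sites of binding.

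Libraries held 28488441 to 39981074 counts assigned to genes. Levels are given in CPM, read counts scaled to a common library size, where each library's size was first multiplied by its TMM factor. These factors were 0.951 to 0.989 with STC1OE corpses, 1.000 to 1.010 with control corpses and 1.017 to 1.031 in macrophages alone. For the same share of assigned counts, a library with a lower factor has a higher level. Stc1 itself, which was overexpressed in the corpses and not in the macrophages, had 2, 3, 7 and 5 counts in the libraries with STC1OE corpses, 3, 0, 2 and 0 counts with control corpses and 0, 2, 0 and 3 counts alone, too few to check the labels. The 8 macrophage markers, among them Adgre1, Csf1r, Cd68 and Lyz2, were expressed in every library, and their summed level was 13680 to 14830 CPM with STC1OE corpses, 13760 to 15460 with control corpses and 15920 to 16820 in macrophages alone, with 4 higher and 4 lower in each comparison with macrophages alone. Neutrophil markers (8 genes) summed to 4.11 to 4.97, 3.66 to 5.04 and 14.8 to 16.7 CPM in the same order of groups, and B cell markers (5 genes) to 4.35 to 4.74, 4.60 to 5.32 and 14.4 to 15.8 CPM. Fibroblast markers (6 genes) summed to 13.9 to 15.2, 12.5 to 17.0 and 17.8 to 23.9 CPM, T and NK cell markers to at most 0.65 CPM and dendritic cell markers to at most 2.25 CPM. Their part in the members' levels was not tested. Fewer cells of a type and less RNA per cell cannot be told apart in such samples. When replicate libraries were compared gene by gene, the ratio of chi-square to its degrees of freedom was 2.81 to 4.26 between libraries 1 and 2 and between libraries 3 and 4, both for STC1OE corpses and for macrophages alone, and 6.00 to 17.1 for the remaining pairs of those groups. Among control corpses it was 2.73 between libraries 3 and 4 and 5.46 to 9.11 otherwise. No label gives a reason for this, and the members whose calls differ between libraries 1 and 2 and libraries 3 and 4 are named after the comparison of the corpse groups.

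Most members rose when macrophages had corpses, and 4 fell. With STC1OE corpses 22 of 33 members were higher than in macrophages alone, 4 were lower and 7 were not called at an adjusted p below 0.05 (edgeR quasi-likelihood test, Benjamini-Hochberg over all genes). With control corpses the numbers were 21, 4 and 8. Over all genes tested, 43.8% were called with STC1OE corpses (21.4% higher and 22.4% lower) and 40.1% with control corpses (19.7% higher and 20.5% lower). Every STC1OE library lay above every library of macrophages alone for 21 members and below for 3, where 19.7% and 20.2% of all genes had these orders, and with control corpses 17 lay above and 5 below, where 18.3% and 18.9% did. The median log2 fold change of the members was 0.19 with STC1OE corpses and 0.09 with control corpses, against −0.03 and −0.001 over all genes tested. Both comparisons use the same 4 libraries of macrophages alone, so their counts are not separate evidence. Most of the changes were small. Past 1.5-fold, Rragd and Gpnmb were higher and Mitf was lower with STC1OE corpses, and with control corpses Rragd was higher and Mitf lower, where 2.93% and 2.61% of all genes were called higher past that fold and 5.65% and 4.2% lower.

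**Figure D1:**
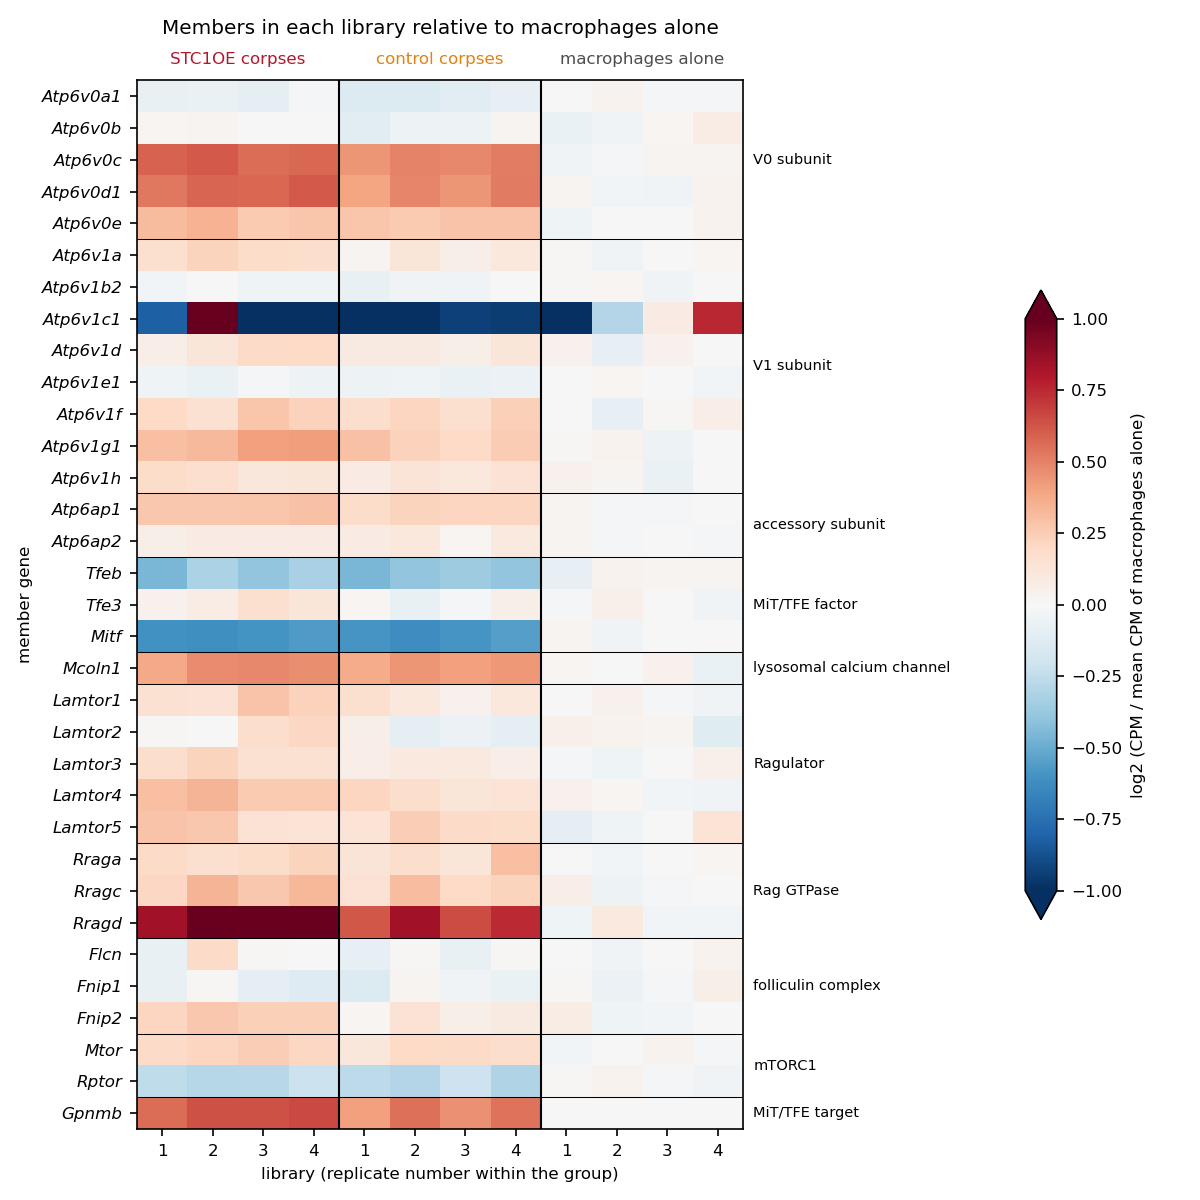
Heat map of the log2 ratio of each member's level in each library to its mean in macrophages alone, with rows grouped by role, colours saturated at 1 in either direction, and columns for 4 libraries with STC1OE corpses, 4 with control corpses and 4 of macrophages alone. Rragd, Gpnmb, Atp6v0c, Atp6v0d1 and Mcoln1 are high in all 8 corpse libraries, Mitf, Tfeb and Rptor are low in them, and Atp6v1c1 varies from library to library within groups.

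In the V0 sector, 3 of 5 subunits rose and 1 fell with either kind of corpse. Atp6v0c encodes the proteolipid whose ring carries the protons. It stood at 588.6, 596.8, 574.5 and 582.4 CPM with STC1OE corpses, at 530.5, 550.9, 543.9 and 558.3 CPM with control corpses and at 382.1, 386.1, 397.1 and 397.6 CPM in macrophages alone. The 3 groups did not overlap. Its log2 fold change over macrophages alone was 0.58 ± 0.02 (SE) with STC1OE corpses (adjusted p = 1.01e-18) and 0.48 ± 0.02 with control corpses (adjusted p = 1.29e-16). A processed pseudogene, Atp6v0c-ps2, matches it at 99.8% over 465 bases and had a mean of 4.33 CPM, so a small part of its reads is uncertain.

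Atp6v0d1, the subunit that couples the ring to the central stalk, moved in the same way. It had 191.5, 199.3, 197.5 and 203.5 CPM with STC1OE corpses, 174.5, 186.1, 180.6 and 190.2 CPM with control corpses and 135.4, 130.4, 129.6 and 136.2 CPM alone, again with no overlap. Its values, and those of Mcoln1 and Atp6v1c1, are listed because they stood out once the results were seen. Atp6v0e, a small V0 subunit, rose by 0.30 ± 0.03 with STC1OE and 0.28 ± 0.03 with control corpses on the log2 scale. Atp6v0a1, the a1 form of the subunit through which protons pass, fell by 0.06 ± 0.02 and 0.12 ± 0.02, and the smaller fall was lost (adjusted p = 0.0594 to 0.258) when any 1 of 8 libraries was left out, among them each STC1OE library. Atp6v0b, the second proteolipid, was not called (0.01 ± 0.03 and −0.05 ± 0.03).

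In the V1 sector 5 of 8 subunits rose with either kind of corpse, all by little, and 3 were not called. Atp6v1g1, a subunit of the outer stalk, rose most, by 0.37 ± 0.03 with STC1OE corpses (adjusted p = 8.45e-12) and 0.24 ± 0.03 with control corpses on the log2 scale. Atp6v1f, in the central stalk, rose by 0.21 ± 0.03 and 0.20 ± 0.03, and Atp6v1h, the regulatory subunit, by 0.15 ± 0.03 and 0.12 ± 0.03. Atp6v1d, also of the central stalk, rose by 0.14 ± 0.03 and 0.09 ± 0.03. Atp6v1a, the catalytic subunit that hydrolyses ATP, had 879.9, 917.9, 895.3 and 892.8 CPM with STC1OE corpses, 801.8, 859.0, 822.7 and 846.5 CPM with control corpses and 796.7, 770.8, 786.8 and 800.2 CPM alone. All STC1OE libraries lay above all others, while the lowest library with control corpses barely passed the highest of macrophages alone. Atp6v1b2, a nucleotide-binding subunit (−0.03 ± 0.02 and −0.04 ± 0.02), and Atp6v1e1, a stalk subunit (−0.05 ± 0.02 in each comparison), were not called. The call of Atp6v1a with control corpses (0.08 ± 0.03, adjusted p = 0.0119) was lost without replicate 2 of macrophages alone (adjusted p = 0.0596), while with STC1OE corpses it rose by 0.18 ± 0.03 (adjusted p = 2.74e-07).

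Atp6v1c1, which links the stator to the catalytic head, was unlike every other member in its spread. It had 8.46, 36.8, 6.86 and 6.77 CPM with STC1OE corpses, 6.82, 7.42, 7.82 and 7.70 CPM with control corpses and 6.53, 12.2, 15.7 and 25.2 CPM in macrophages alone, from 189 to 1136 counts per library. Control libraries were alike, while the other groups each held libraries several times apart. No comparison called it (adjusted p = 0.966, 0.249 and 0.463 for STC1OE corpses and control corpses against macrophages alone and STC1OE against control corpses). Without STC1OE replicate 2, its log2 fold change with STC1OE corpses was −1.02 over macrophages alone in place of −0.04 (adjusted p = 0.0696), and −0.01 over control corpses in place of 0.98. In libraries 3 and 4 alone it was called lower than in macrophages alone, at −1.59 with STC1OE (adjusted p = 0.0322) and −1.40 with control corpses (adjusted p = 0.0449), whereas in libraries 1 and 2 alone it stood at 1.27 (adjusted p = 0.434) and −0.40 (adjusted p = 0.846).

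The accessory subunits rose: Atp6ap1, which helps assembly of the pump, by 0.28 ± 0.02 and 0.21 ± 0.02 with STC1OE and control corpses, and Atp6ap2, the prorenin receptor, by 0.08 ± 0.03 with each.

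The 15 V-ATPase genes together summed to 5013 to 5128 CPM with STC1OE corpses, 4745 to 4943 CPM with control corpses and 4525 to 4592 CPM alone. The groups did not overlap on this scale, but without the TMM factors the sums of the 2 corpse groups overlap. Within this sum the V0 genes were at 1811 to 1871, 1711 to 1796 and 1581 to 1601 CPM and the V1 genes at 2556 to 2643, 2433 to 2535 and 2401 to 2456 CPM. The V1 ranges of control corpses and macrophages alone overlapped.

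**Figure D2:**
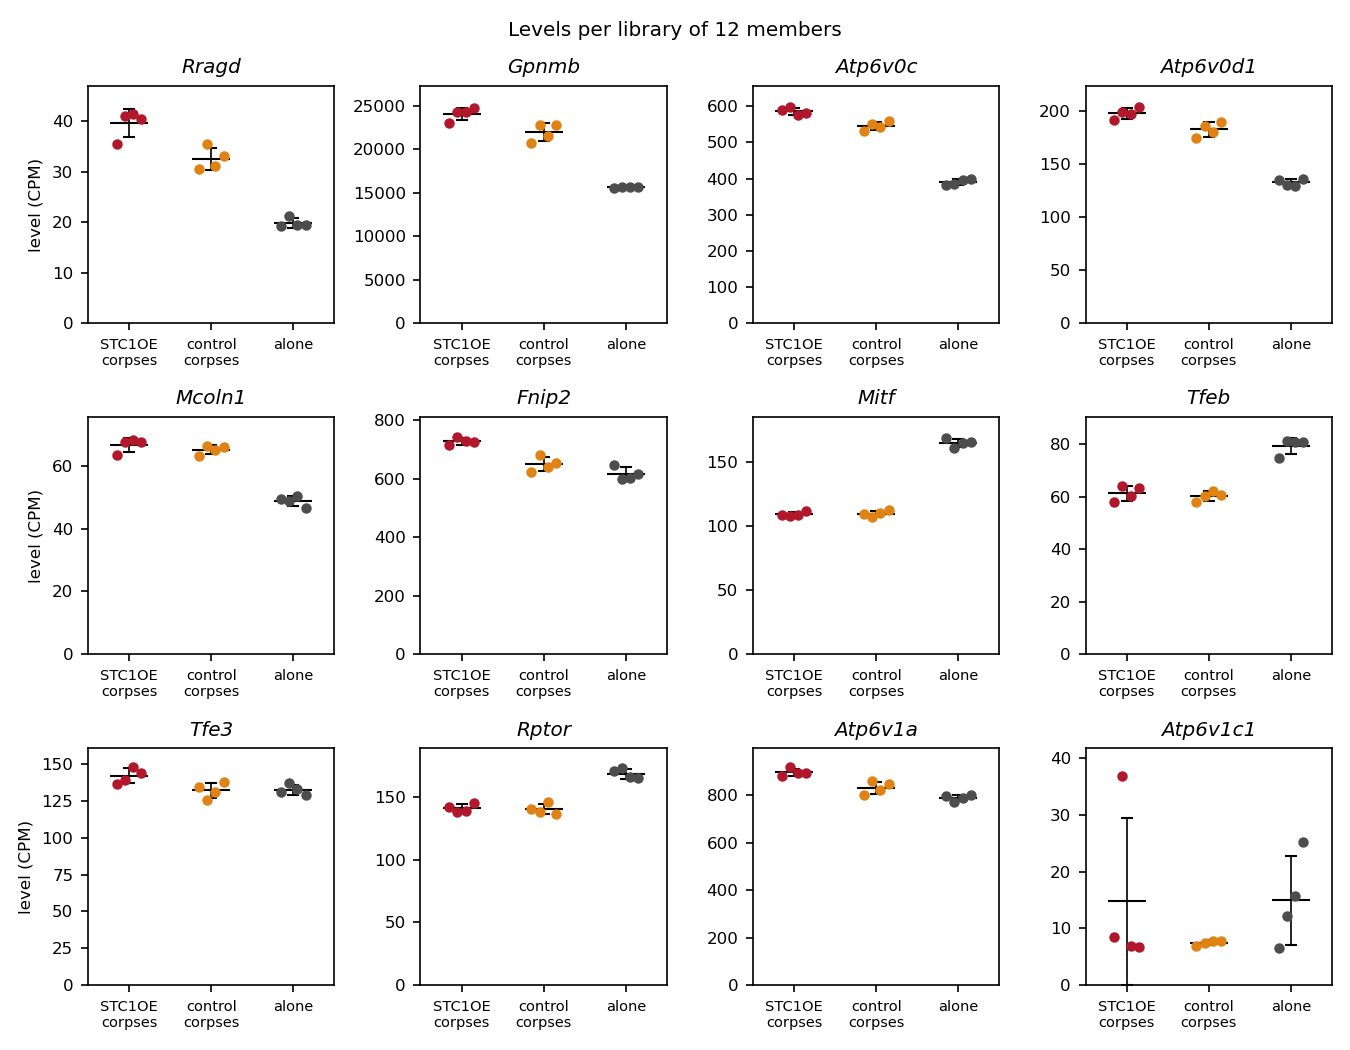
Level in CPM of 12 members in each library (points), with the mean (bar) and 1 SD (whiskers, stopped at 0) of the 4 libraries of STC1OE corpses, control corpses and macrophages alone. On this TMM-scaled level Rragd, Gpnmb, Atp6v0c and Atp6v0d1 form 3 separate groups, while for Mitf, Tfeb and Rptor both corpse groups lie together below macrophages alone.

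Ragulator is the scaffold that anchors the Rags to the lysosome. Of its 5 genes, 4 rose with either kind of corpse. The sum of the 5 was 299.3 to 309.8 CPM with STC1OE corpses, 277.9 to 290.0 CPM with control corpses and 263.9 to 267.4 CPM alone, without overlap. Taken without the TMM factors, the sums of the corpse groups overlap. Lamtor4 rose by 0.29 ± 0.04 with STC1OE and 0.16 ± 0.04 with control corpses on the log2 scale, and Lamtor5 by 0.21 ± 0.05 and 0.19 ± 0.05. The rise of Lamtor5 was 0.35 and 0.27 in libraries 1 and 2 but 0.07 and 0.12 in libraries 3 and 4, where neither was called (adjusted p = 0.282 and 0.0594). Lamtor1, the subunit that carries the lipid anchor, rose by 0.20 ± 0.03 and 0.10 ± 0.03, and Lamtor3 by 0.17 ± 0.03 and 0.08 ± 0.03. Lamtor2 was not called. It was 42.4 and 43.4 CPM in STC1OE libraries 3 and 4 but 37.9 and 37.5 CPM in libraries 1 and 2, against 35.0 to 39.2 CPM with control corpses and 34.5 to 38.9 CPM alone. Processed pseudogenes match Lamtor1, Lamtor3 and Lamtor5 at 95% or more, each with a mean below that of Atp6v0c-ps2.

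The Rag GTPases work as pairs of RagA or RagB with RagC or RagD, and all 3 measured as members rose. Rragd (ENSMUSG00000028278.14, chromosome 4, 32983037 to 33022180, GRCm38), which encodes RagD, had the largest called change of the 33 over macrophages alone with both kinds of corpse. It had 35.5, 41.0, 41.5 and 40.4 CPM with STC1OE corpses, 30.5, 35.5, 31.1 and 33.1 CPM with control corpses and 19.2, 21.2, 19.4 and 19.5 CPM in macrophages alone. Every corpse library lay above every library of macrophages alone, and every STC1OE library above every control library, by a narrow margin for STC1OE replicate 1. The log2 fold change was 1.00 ± 0.05 with STC1OE corpses (2.00-fold, adjusted p = 1.92e-14) and 0.72 ± 0.05 with control corpses (1.64-fold, adjusted p = 2.65e-11).

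Rragc, which encodes the close relative RagC, rose by 0.29 ± 0.03 with STC1OE and 0.22 ± 0.03 with control corpses. Rraga rose by 0.19 ± 0.04 and 0.18 ± 0.04. Per kilobase of exon, Rragc was the more abundant in every group, at 58.0 ± 2.47 (SD, n = 4) with STC1OE corpses, 55.4 ± 2.64 with control corpses and 47.5 ± 1.63 CPM per kilobase alone, against 7.66 ± 0.53, 6.29 ± 0.43 and 3.83 ± 0.18 for Rragd.

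The folliculin complex is the activator of GTP hydrolysis by RagC and RagD, through which mTORC1 is directed to Tfeb and Tfe3. Its genes split. Fnip2 had 714.8, 744.0, 729.1 and 727.3 CPM with STC1OE corpses, 624.7, 680.0, 642.0 and 655.2 CPM with control corpses and 648.5, 598.3, 604.1 and 615.7 CPM alone. The STC1OE libraries lay above all others, whereas control corpses and macrophages alone overlapped. The log2 fold change was 0.24 ± 0.03 with STC1OE corpses (adjusted p = 1.28e-08) and 0.08 ± 0.03 with control corpses, and the call for control corpses (adjusted p = 0.0247) was lost without any 1 of 5 libraries (replicates 2, 3 and 4 of macrophages alone and 2 and 4 of control corpses, adjusted p = 0.0553 to 0.112). Flcn (0.04 ± 0.04 and −0.03 ± 0.04) and Fnip1 (−0.07 ± 0.03 and −0.05 ± 0.03) were not called.

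The genes of mTORC1 itself went opposite ways. Rptor, the subunit that binds substrates and the Rags, had 141.6, 138.1, 138.8 and 145.5 CPM with STC1OE corpses, 140.3, 137.8, 145.6 and 136.5 CPM with control corpses and 170.3, 173.1, 165.8 and 164.7 CPM alone. Both corpse groups lay together, below all libraries of macrophages alone. It fell by 0.26 ± 0.03 with STC1OE corpses (adjusted p = 3.22e-09) and by 0.27 ± 0.03 with control corpses (adjusted p = 1.61e-09) on the log2 scale. Rptoros, an overlapping gene model, shares exon bases with it, and whether counting used the strand is not stated in the sources used here. The same limit holds for Atp6v1h, Lamtor1 and Rragc, which rose, and for Atp6v0b and Atp6v1e1, since each shares exon bases with another gene model. Mtor, the kinase, rose by 0.21 ± 0.03 with STC1OE and 0.17 ± 0.03 with control corpses.

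Of the 3 transcription factors, Mitf and Tfeb fell with both kinds of corpse and Tfe3 did not. Mitf (chromosome 6, 97807052 to 98021349) had 108.2, 107.9, 108.7 and 111.5 CPM with STC1OE corpses, 109.4, 106.8, 109.7 and 112.2 CPM with control corpses and 168.1, 160.9, 164.3 and 165.5 CPM in macrophages alone. The corpse groups coincided, far below macrophages alone. The log2 fold change was −0.59 ± 0.03 in each comparison (adjusted p = 3.16e-18 with STC1OE and 4.36e-18 with control corpses), or 0.662-fold and 0.665-fold.

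Tfeb (chromosome 17, 47737030 to 47792419) had 57.9, 64.0, 60.5 and 63.6 CPM with STC1OE corpses, 58.1, 60.4, 62.3 and 60.6 CPM with control corpses and 74.9, 81.3, 80.9 and 80.9 CPM alone. No corpse library reached the lowest library of macrophages alone. The log2 fold change was −0.37 ± 0.04 with STC1OE corpses (adjusted p = 3.28e-10) and −0.40 ± 0.04 with control corpses (adjusted p = 7.32e-11). Tfe3 (chromosome X, 7762560 to 7775202) had 136.8, 139.6, 148.1 and 144.4 CPM with STC1OE corpses, 134.6, 126.0, 131.2 and 138.1 CPM with control corpses and 130.9, 137.1, 133.4 and 129.3 CPM alone. All 3 groups overlapped. It was called higher with STC1OE corpses (0.10 ± 0.03, adjusted p = 0.00727) and not with control corpses (−0.002 ± 0.03, adjusted p = 0.976), and in libraries 1 and 2 alone the call with STC1OE corpses was lost (adjusted p = 0.523).

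Set beside each other per kilobase of exon, Mitf was the highest of the 3 factors in each group. It was at 17.6 ± 0.26 with STC1OE corpses, 17.7 ± 0.36 with control corpses and 26.6 ± 0.49 CPM per kilobase alone. Tfe3 was at 15.4 ± 0.54, 14.3 ± 0.56 and 14.3 ± 0.37, and Tfeb at 10.8 ± 0.51, 10.6 ± 0.31 and 14.0 ± 0.54. Tfe3 and Tfeb overlapped in macrophages alone, while with either kind of corpse Tfeb lay below Tfe3. Exon length is the union over all transcripts, so these values depend on which isoforms the macrophages use.

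Mcoln1, the lysosomal channel that releases calcium, rose with both kinds of corpse to about the same level. It had 63.6, 67.8, 68.3 and 67.6 CPM with STC1OE corpses, 63.3, 66.4, 65.1 and 66.2 CPM with control corpses and 49.6, 48.9, 50.4 and 46.7 CPM alone. The corpse groups overlapped and lay apart from macrophages alone. The log2 fold change was 0.45 ± 0.03 with STC1OE corpses (adjusted p = 1.53e-12) and 0.41 ± 0.03 with control corpses (adjusted p = 1.07e-11).

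Gpnmb (chromosome 6, 49036546 to 49070929), a transmembrane glycoprotein and target of Mitf and Tfe3, was by far the most abundant member. It had 23027, 24236, 24298 and 24693 CPM with STC1OE corpses, 20693, 22816, 21477 and 22747 CPM with control corpses and 15562, 15632, 15606 and 15638 CPM alone. On this scale the 3 groups did not overlap, although STC1OE replicate 1 and control replicate 2 nearly met. This gene alone took 2.27% to 2.40% of all assigned counts with STC1OE corpses, 2.08% to 2.30% with control corpses and 1.58% to 1.61% in macrophages alone, shares in which the corpse groups overlapped. The log2 fold change was 0.62 ± 0.03 with STC1OE corpses (1.54-fold, adjusted p = 8.13e-18) and 0.49 ± 0.03 with control corpses (1.41-fold, adjusted p = 3.09e-15).

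Melanoma cells also express Mitf and Gpnmb, so transcripts of the corpses could be counted with those of the macrophages. The 14 melanocyte markers, which leave these members out, summed to 15.5 to 17.5 CPM with STC1OE corpses, 20.0 to 25.2 CPM with control corpses and 7.32 to 8.48 CPM alone. Most of the level in macrophages alone came from Slc24a5, Ednrb and Erbb3, and the other 11 summed to 3.31 to 4.77, 9.98 to 13.3 and 0.23 to 0.59 CPM. Of the 10 markers tested, 9 rose with each kind of corpse, while 6 were lower and 1 was higher with STC1OE than with control corpses. Tyr, Oca2, Gpr143 and Cdh19 were at 0 counts in all libraries of macrophages alone, and Gpr143 also in all with STC1OE corpses. The level of these markers thus moved with the corpses, and its part in the members' levels was not tested. Their sum was lower with STC1OE than with control corpses. The log2 difference between the corpse groups was 0.13 ± 0.03 for Gpnmb and −0.01 ± 0.03 for Mitf. How much Gpnmb or Mitf RNA came from the corpses of either line was not tested.

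**Figure D3:**
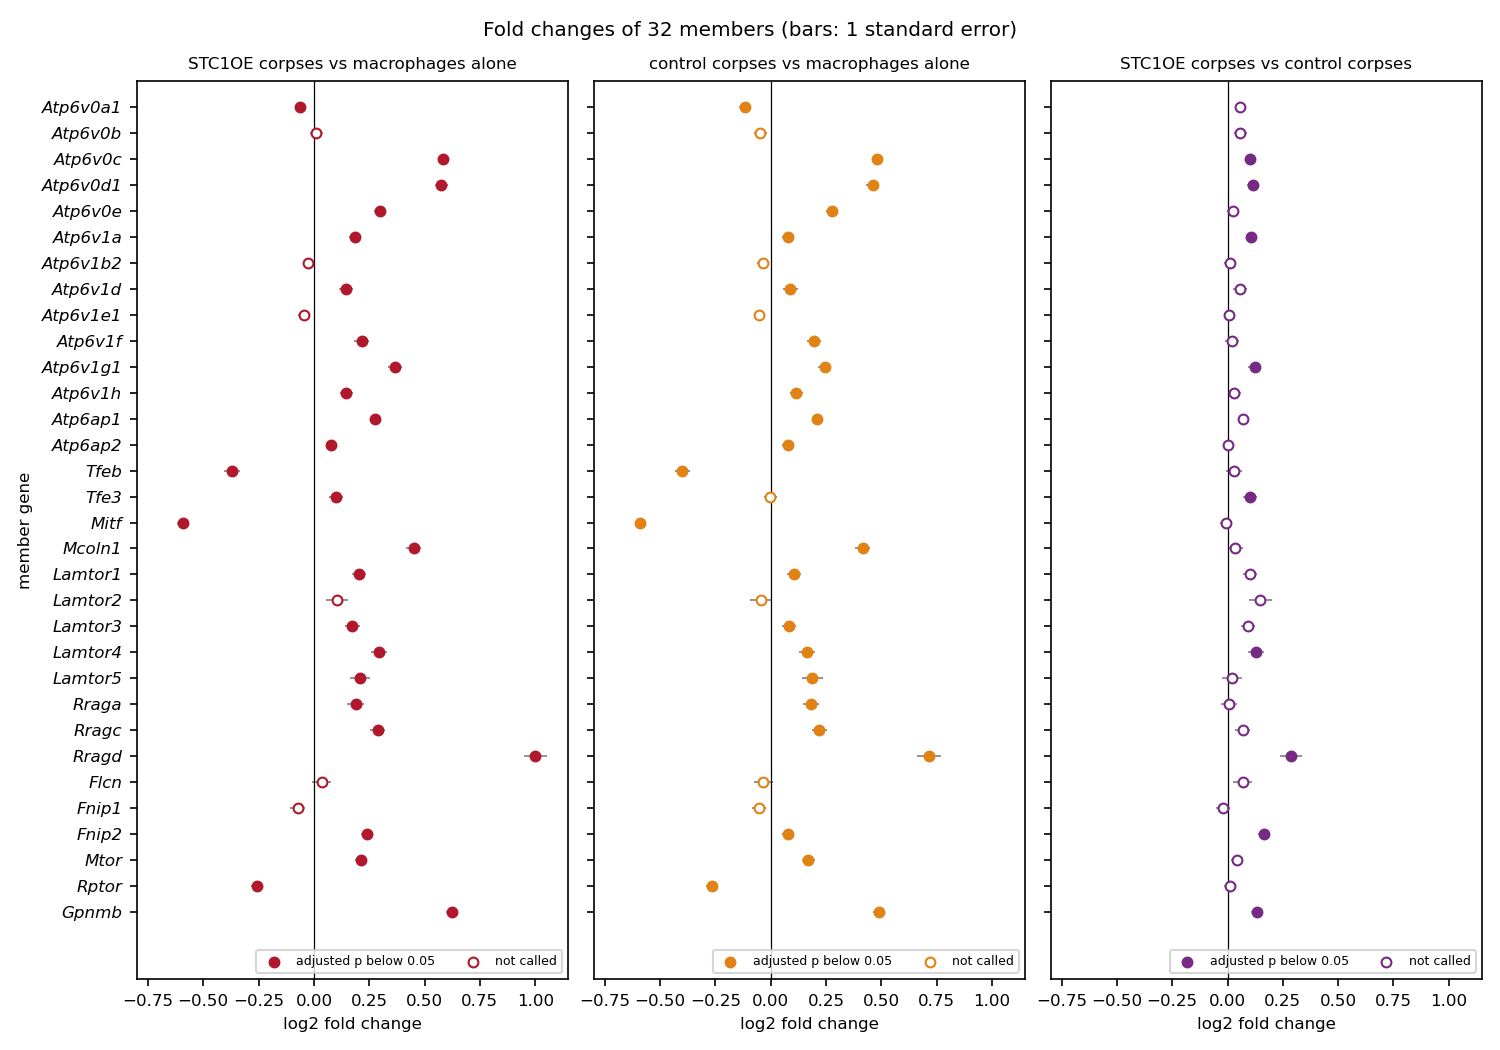
Log2 fold change (points, with bars of 1 SE) of 32 members, in role order, for STC1OE corpses and control corpses against macrophages alone and for STC1OE against control corpses. Filled points have an adjusted p below 0.05. Atp6v1c1, with an SE of 0.60 to 0.64, is left out, and its log2 fold change of −1.02 with control corpses lies beyond the axis. In the panels against macrophages alone the values run from −0.59 for Mitf up to 1.00 (STC1OE) and 0.72 (control) for Rragd, and in the third panel the called members lie between 0.10 and 0.28.

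Whether the corpses' STC1 status mattered was asked by comparing the corpse groups with each other. Here 9 of 33 members were higher with STC1OE corpses and 24 were not called, where 5.44% of all genes were called, 3.33% higher and 2.12% lower. None was called lower by edgeR, none was lower at an unadjusted p below 0.05, where 14 were higher, and DESeq2 called 11 higher and 0 lower. The median log2 fold change of the members was 0.06, against −0.01 over all genes. The 9 were Rragd, Fnip2, Gpnmb, Lamtor4, Atp6v1g1, Atp6v0d1, Atp6v1a, Tfe3 and Atp6v0c. None reached 1.5-fold, a size at which 0.0549% of all genes were called higher and 0.226% lower.

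Among the 9, Rragd showed the largest difference, 0.28 ± 0.05 on the log2 scale (1.22-fold, adjusted p = 0.000925). Fnip2 followed with 0.16 ± 0.03 (adjusted p = 0.000376) and Gpnmb with 0.13 ± 0.03 (adjusted p = 0.00316). Lamtor4 (38.7 to 40.7 CPM with STC1OE, 35.0 to 37.5 CPM with control corpses) and Atp6v1g1 (159.7 to 173.4 and 148.6 to 158.4 CPM) differed by 0.13 ± 0.04 and 0.12 ± 0.03. The pump subunits Atp6v0d1, Atp6v1a and Atp6v0c differed by 0.12 ± 0.03, 0.11 ± 0.03 and 0.10 ± 0.02, and Tfe3 by 0.10 ± 0.03 with overlapping groups. Of the 9, all but Tfe3 had groups that did not overlap, as did Atp6ap1 and Lamtor3, which were not called (adjusted p = 0.0705 and 0.0756). That made 10 members with every STC1OE library above every control library, where 5.86% of all genes had this order. The opposite order held for 0 members and for 4.85% of all genes. These orders are on the TMM-scaled levels, for the members and for all genes. Without the TMM factors the corpse groups overlap for Rragd, Gpnmb, Lamtor4, Atp6v1g1, Atp6v0d1, Atp6v1a, Atp6v0c, Atp6ap1 and Lamtor3, and stay apart for Fnip2.

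The factors that fell with corpses did not separate the corpse groups by this test. The log2 difference was −0.01 ± 0.03 for Mitf, 0.03 ± 0.04 for Tfeb and 0.01 ± 0.03 for Rptor, and Mcoln1, at 0.04 ± 0.03, was not called either. For these members a difference of several hundredths in either direction is within the error. The differences between the corpse groups were small, and fewer were called in libraries 1 and 2 than in libraries 3 and 4. In libraries 1 and 2 alone edgeR called 0 members, with 9 higher and 0 lower at an unadjusted p below 0.05, and in libraries 3 and 4 alone it called 13. The log2 difference was 0.21 and 0.35 for Rragd, 0.16 and 0.17 for Fnip2, 0.12 and 0.15 for Gpnmb and 0.05 and 0.19 for Atp6v1g1 in libraries 1 and 2 and in libraries 3 and 4. Without control replicate 3 the test called 5 members and without STC1OE replicate 3 it called 6. Rragd, Fnip2, Gpnmb, Atp6v0c and Atp6v1a were called whichever library was left out. Atp6v0d1 was lost without control replicate 1 or 3 (adjusted p = 0.067 and 0.0562), and Atp6v1g1 without control replicate 3 or STC1OE replicate 3 (adjusted p = 0.0593 and 0.0614). Lamtor4 was lost without any 1 of control replicates 3 and 4 and STC1OE replicates 2 and 3 (adjusted p = 0.0519 to 0.114). Tfe3 was lost without any 1 of control replicates 1, 2 and 3, STC1OE replicates 3 and 4 and replicate 3 of macrophages alone (adjusted p = 0.0524 to 0.189).

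Signs of library quality moved with these libraries. Mitochondrially encoded genes took 3.41%, 3.29%, 4.29% and 4.29% of assigned counts in STC1OE libraries 1 to 4, and 3.74%, 3.29%, 3.13% and 3.13% in the control libraries. Reads not aligned were 14.6%, 14.4%, 17.8% and 17.5% in the STC1OE libraries and 11.3%, 11.5%, 10.8% and 11.4% in the control libraries. Their part in the members' differences was not tested.

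Calls on single members depended on the pair of libraries in the other comparisons too. With STC1OE corpses against macrophages alone, 22 of the 26 calls were kept in libraries 1 and 2, without Atp6v0a1, Atp6v1d, Atp6ap2 and Tfe3, and 24 in libraries 3 and 4, without Atp6v0a1 and Lamtor5. Lamtor2 (0.24, adjusted p = 4.6e-05), Fnip1 (−0.14, adjusted p = 0.000231) and Atp6v1c1 were called in libraries 3 and 4 and not over all 4. With control corpses 18 of 25 were kept in libraries 1 and 2, without Atp6v1a, Atp6v1d, Atp6v1h, Atp6ap2, Lamtor1, Lamtor3 and Fnip2, and 21 in libraries 3 and 4, without Atp6v1d, Atp6ap2, Lamtor3 and Lamtor5. Between the corpse groups libraries 3 and 4 kept 8 of the 9, without Lamtor4 (adjusted p = 0.0518), and added Atp6v1d, Atp6ap1, Lamtor1, Lamtor2 and Rragc.

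The comparisons can be read side by side for each member, though all share groups. A set of 8 members was called higher in all 3 comparisons: Rragd, Gpnmb, Fnip2, Lamtor4, Atp6v0c, Atp6v0d1, Atp6v1a and Atp6v1g1. Another 13 were called higher with each kind of corpse and not between the corpse groups, among them Mcoln1, Mtor, Rraga, Rragc and Atp6ap1. Mitf, Tfeb, Rptor and Atp6v0a1 were called lower with each kind of corpse. Tfe3 was called with STC1OE corpses against either other group. The 7 never called were Atp6v0b, Atp6v1b2, Atp6v1c1, Atp6v1e1, Lamtor2, Flcn and Fnip1.

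Members with CACGTG in the promoter window were called higher with both kinds of corpse in 7 of 9 cases and lower in 0. Of the 19 with a window and without the hexamer, 11 were higher with both and 4 lower. Of all genes tested, 21.4% were higher with STC1OE and 19.7% with control corpses, and the share higher with both was not counted. Tested genes outside the set were not split by the hexamer. The difference between members with and without it was not tested. The median log2 fold change was 0.29 with STC1OE and 0.16 with control corpses in members with it, and 0.14 and 0.08 in those without. The 5 sequences printed belong to members that rose with both kinds of corpse, as did Atp6v0e and Lamtor1, while Atp6v0b and Fnip1, which also hold CACGTG, were not called. Rragd and Gpnmb, with the largest rises, hold no CACGTG in these windows.

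**Figure D4:**
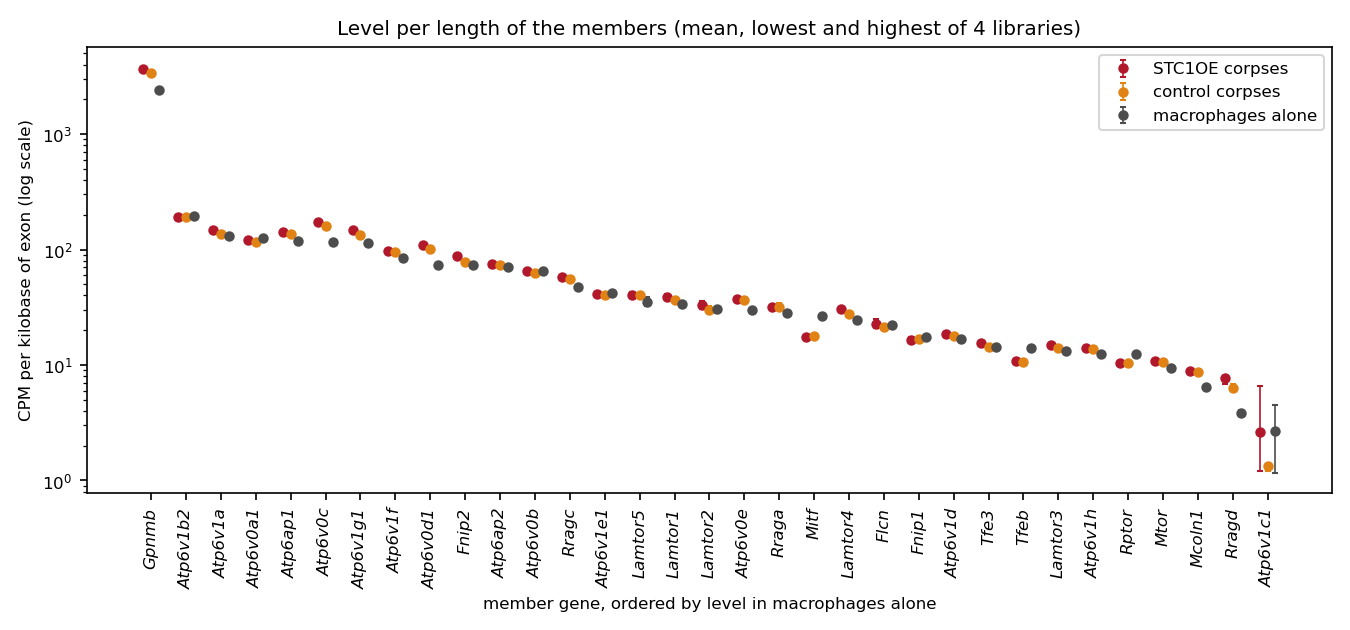
Level per kilobase of exon (CPM per kilobase, log axis) of the 33 members with STC1OE corpses, control corpses and macrophages alone, ordered by the level in macrophages alone; points are means and bars reach from the lowest to the highest of 4 libraries. Gpnmb stands far above the rest at 3694, 3367 and 2396, and Atp6v1c1 is lowest at 2.63, 1.33 and 2.66 CPM per kilobase.

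Levels per kilobase of exon set the members in order within macrophages alone. Gpnmb at 2396 ± 5.32 CPM per kilobase was followed by the V1 subunits Atp6v1b2 (195.8 ± 3.35) and Atp6v1a (130.5 ± 2.18). Atp6v1a overlapped with Atp6v0a1 (125.6 ± 2.27), and Atp6ap1 (117.8 ± 1.56), Atp6v0c (115.5 ± 2.31) and Atp6v1g1 (114.1 ± 2.77) overlapped in turn. The Rags spread from 47.5 for Rragc over 28.2 for Rraga to 3.83 for Rragd, and the Ragulator genes from 35.1 for Lamtor5 to 13.3 for Lamtor3. Mtor (9.35 ± 0.17), Mcoln1 (6.48 ± 0.21), Rragd (3.83 ± 0.18) and Atp6v1c1 (2.66 ± 1.40) closed the order, and the last 2 overlapped. Atp6v0c stood above Atp6v1a both with STC1OE corpses (means of 173.0 and 148.3 CPM per kilobase) and with control corpses (161.3 and 137.7), the reverse of macrophages alone.

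Around the members, 105 further genes of these pathways were taken in 9 lists, of which 101 were tested. With STC1OE corpses 44 were higher and 20 lower than in macrophages alone (43.6% and 19.8%, beside 21.4% and 22.4% of all genes). With control corpses the numbers were 37 and 23 (36.6% and 22.8%, beside 19.7% and 20.5%). Between the corpse groups 18 were higher and 1 was lower with STC1OE corpses (17.8% and 0.99%, beside 3.33% and 2.12%). The list of CLEAR network genes, 22 of the 101 tested, held 19, 16 and 13 of these higher calls. The median log2 fold changes of the 101 genes were 0.08, 0.05 and 0.04, against −0.03, −0.001 and −0.01 over all genes.

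The enzymes and other targets of the CLEAR network rose in most cases. Of 22 genes 19 were higher with STC1OE corpses and 16 with control corpses, none was called lower, also at an unadjusted p below 0.05 and by DESeq2, and 13 were higher with STC1OE than with control corpses. The medians were 0.40, 0.30 and 0.11. Gaa, which breaks down glycogen in lysosomes, had 191.8 to 217.3 CPM with STC1OE corpses, 170.5 to 188.3 CPM with control corpses and 101.6 to 108.2 CPM alone, 3 groups without overlap. Naglu, which digests heparan sulphate, rose by 0.83 ± 0.03 with STC1OE corpses and by 0.69 ± 0.03 with control corpses.

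Among the other V-ATPase subunits 3 of 6 tested rose with each kind of corpse (50%, beside 21.4% of all genes with STC1OE and 19.7% with control corpses). Atp6v0d2, the form of the d subunit known from osteoclasts and macrophages, was at 432.0 to 476.7 CPM with STC1OE corpses, 422.2 to 465.5 with control corpses and 375.0 to 387.0 CPM alone. Atp6v0a2 rose by 0.25 ± 0.03 and 0.23 ± 0.03 and Tcirg1, the a3 subunit, by 0.22 ± 0.03 and 0.17 ± 0.03, where the a1 form Atp6v0a1 fell. Osteoclast markers, in 6 genes, summed to 102.0 to 114.0 CPM with STC1OE corpses, 103.7 to 106.4 CPM with control corpses and 130.6 to 140.8 CPM alone. Of 10 assembly factors 3 were higher and 3 lower with STC1OE corpses (30% each) and 2 and 3 with control corpses (20% and 30%), beside 21.4% and 22.4%, and 19.7% and 20.5%, of all genes. Of those, Oxr1 and Ncoa7, TLDc-domain proteins that bind the pump, fell by 0.27 ± 0.03 and 0.20 ± 0.04 with STC1OE corpses. Rogdi, a subunit of the RAVE-like assembly complex, fell by 0.21 ± 0.08 with control corpses (adjusted p = 0.0453).

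In the list of mTORC1 partners and the Rheb-TSC branch 4 of 8 were higher and 2 lower with STC1OE corpses, and 3 and 3 with control corpses. That is 50% and 25%, and 37.5% each, beside 21.4% and 22.4%, and 19.7% and 20.5%, of all genes. Deptor, an inhibitor of mTOR, had 14.3 to 15.9 CPM with STC1OE corpses, 15.1 to 17.7 CPM with control corpses and 23.6 to 25.2 CPM alone, with no corpse library near macrophages alone. Tbc1d7, a subunit of the TSC complex, rose by 0.42 ± 0.08 and 0.45 ± 0.08, and Akt1s1, which encodes the inhibitor PRAS40, by 0.29 ± 0.04 and 0.19 ± 0.04. Of 20 nutrient sensors 5 were higher and 4 lower with STC1OE corpses, and 4 and 3 with control corpses, which is 25% and 20%, and 20% and 15%, near the 21.4% and 22.4%, and 19.7% and 20.5%, of all genes. Castor2, related to the arginine sensor Castor1, rose by 0.60 ± 0.04 and 0.52 ± 0.04, while Sesn1, a leucine sensor and p53 target, fell by 0.59 ± 0.03 and 0.53 ± 0.03. Castor1 itself was called between the corpse groups, at 2.21 to 3.10 CPM with STC1OE and 1.89 to 2.07 CPM with control corpses, as was Sesn2, another leucine sensor, at a mean of 25.9 and 22.3 CPM (0.22 ± 0.04).

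Genes whose proteins mTORC1 phosphorylates fell where they were called over macrophages alone. Of 9 tested, 4 were lower with STC1OE corpses and 5 with control corpses, and none was called higher, although 1 was higher at an unadjusted p below 0.05 in each comparison by edgeR and by DESeq2. The lower calls made up 44.4% and 55.6%, beside 22.4% and 20.5% of all genes. Lpin1, a phosphatidate phosphatase, had 21.1 to 25.3 CPM with STC1OE corpses, 20.6 to 24.9 CPM with control corpses and 37.0 to 39.2 CPM alone. Ulk1, the kinase that starts autophagy, fell by 0.33 ± 0.04 and 0.45 ± 0.04, and Maf1, a repressor of RNA polymerase III, by 0.13 ± 0.04 and 0.23 ± 0.04. Between the corpse groups the 1 gene called was Eif4ebp1, the translation repressor 4E-BP1, higher by 0.19 ± 0.04 with STC1OE corpses (adjusted p = 0.00179), and it, Sesn2 and Tpcn2 are named because they made up counts of few genes.

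In the list of Tfeb regulators and Tfec, 4 of 8 were higher and 4 lower with STC1OE corpses, and 2 and 4 with control corpses. These are 50% each, and 25% and 50%, beside 21.4% and 22.4%, and 19.7% and 20.5%, of all genes. Ppp3ca, a catalytic subunit of calcineurin, fell by 0.30 ± 0.02 with STC1OE corpses and by 0.32 ± 0.02 with control corpses on the log2 scale. Tfec, the remaining member of the factor family, fell by 0.22 ± 0.05 and 0.25 ± 0.05, alongside Mitf and Tfeb, and Zkscan3, a repressor of lysosomal genes, by 0.28 ± 0.05 and 0.18 ± 0.05.

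Channels and lysosome positioning completed the lists. Of 8 other lysosomal channels 3 were higher and 1 lower with STC1OE corpses, and 4 and 1 with control corpses. That is 37.5% and 12.5%, and 50% and 12.5%, beside 21.4% and 22.4%, and 19.7% and 20.5%, of all genes. Mcoln3 and Mcoln2, the relatives of Mcoln1, rose by 0.70 ± 0.09 and 0.39 ± 0.05 with STC1OE corpses and by 0.66 ± 0.09 and 0.26 ± 0.05 with control corpses. Clcn7, the chloride-proton exchanger, rose by 0.37 ± 0.03 and 0.26 ± 0.03 and was also higher with STC1OE than with control corpses, by 0.11 ± 0.03 (adjusted p = 0.0175), while Tpcn2, an endolysosomal cation channel, was lower by 0.10 ± 0.03 (adjusted p = 0.0168). In BORC and Arl8, which move lysosomes along microtubules, 3 of 10 were higher and 2 lower with STC1OE corpses, and 3 and 4 with control corpses. These shares are 30% and 20%, and 30% and 40%, beside the same percentages of all genes. The GTPases Arl8b and Arl8a rose by 0.41 ± 0.03 and 0.33 ± 0.04 with STC1OE corpses and by 0.34 ± 0.03 and 0.17 ± 0.04 with control corpses, while Borcs6, of BORC, fell by 0.24 ± 0.08 and 0.33 ± 0.08.

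**Figure D5:**
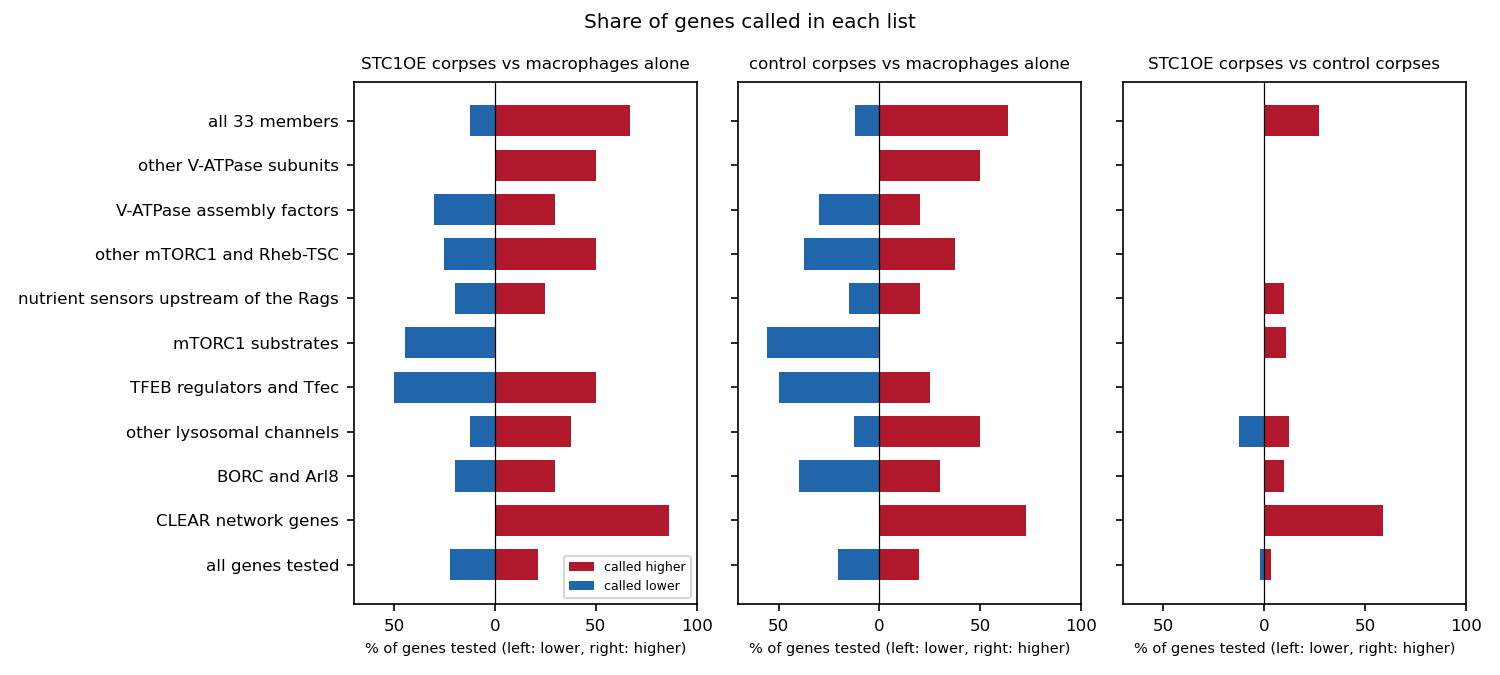
Share of the genes tested in each list that were called higher (red, to the right) and lower (blue, to the left) in each comparison, in percent, with all genes tested in the last row. The CLEAR network genes reach 86.4%, 72.7% and 59.1% higher with STC1OE corpses, with control corpses and between the corpse groups, against 21.4%, 19.7% and 3.33% of all genes, and the mTORC1 substrates show calls only to the left in the comparisons with macrophages alone.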

How the data were processed

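Total RNA of 12 libraries (3 groups of 4) was sequenced as paired reads. Each library has a deposited table of whole-number read counts by Ensembl gene, not normalized, and its group and replicate number come from its title. The authors' tools were HISAT2, HTSeq and DESeq2 on mm10 or GRCm38, per the submitters' processing notes. Versions, annotation release and strand setting are not given in the sources used here. Lines that name no gene stayed out of library sizes and tests: no feature 10.6% to 14.7%, ambiguous 5.53% to 6.62%, low quality 5.17% to 5.85%, not aligned 10.8% to 17.8% (14.4% to 17.8% with STC1OE corpses) and not unique 5.74% to 7.03% of reads. GENCODE gene models on GRCm38 gave a symbol to 54723 of 55604 identifiers, coordinates and exon lengths.

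Counts were analysed with edgeR 4.0.16 in R 4.3.3: filterByExpr (minimum count 10, minimum total 15), TMM factors, a robust quasi-likelihood fit in which the 3 group means were estimated jointly from the 12 libraries, two-sided tests and Benjamini-Hochberg adjustment over 16406 genes, threshold 0.05. The biological coefficient of variation was 4.53%. "Called" means past that threshold, and "rose" and "fell" are used of called genes. Alternatives used DESeq2 1.42.0 and the settings described with the closing results. The steps were tested on simulated data. Near-identical copies were searched with BLAST 2.17.0 (95% identity over 200 bases), and promoters were RefSeq windows. The p-values measure the spread between libraries, which includes counting error, and that error weighs most in genes of few counts. The members and lists were chosen with earlier results of these data known. Values per library are given for Tfeb, Tfe3, Mitf, Gpnmb and the 3 called members at either end of each comparison, and of each list up to 3 called genes of at least 2 CPM with the largest change are named, except 1 that is not reported here. Protein sequences were not used here.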

Additional observations from a re-analysis of the deposited data

Results flagged for a closer look

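In 60 genes, the 33 members and 27 genes of the pathway lists, each group of 4 libraries was searched for a highest or lowest library far from the other 3 relative to the group's range, past Dixon's critical value for 4 samples. Of 180 gene and group pairs 12 were found, where chance gives about 1 in 20, or 9. The widest was Atp6v1c1, at 36.8 CPM in STC1OE replicate 2 against 6.77 to 8.46 CPM in the other 3. The rest stood apart by little. With STC1OE corpses, replicate 1 was lowest for Atp6ap2 (192.2 CPM, others 195.1 to 195.5), Mcoln1 (63.6, others 67.6 to 68.3), Tcirg1 (833.8, others 847.6 to 849.1) and Clcn7 (275.3, others 289.1 to 291.2), and replicate 3 was highest for Atp6v0a2 (71.2, others 69.7 to 69.9). In macrophages alone, replicate 1 was lowest for Tfeb (74.9 CPM, others 80.9 to 81.3) and Tcirg1 (694.6, others 734.6 to 739.9) and highest for Tbc1d7 (6.77, others 5.62 to 5.70). Replicate 2 of macrophages alone was highest for Rragd (21.2 CPM, others 19.2 to 19.5) and lowest for Borcs6 (7.89, others 9.74 to 9.84), and replicate 4 was lowest for Lamtor2 (34.5, others 38.2 to 38.9).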

How the results depend on the processing

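No call of the 33 members or of the 27 pathway genes chosen by the naming rule reversed in 21 alternatives for each of the 3 comparisons. For the other pathway genes changes of call were not tallied, and only counts per list by DESeq2 were taken. Over 2079 member results 1932 kept direction and side of the threshold, 118 lost the call and 29 gained one. Tested against 1.2-fold by edgeR, 2119, 1687 and 4 genes remained past the threshold for STC1OE corpses and control corpses against macrophages alone and for STC1OE against control corpses, in place of 7186, 6582 and 893, and 8, 7 and 0 members in place of 26, 25 and 9 (0 members also at an unadjusted p below 0.05). In libraries 1 and 2 alone 4650, 4090 and 33 genes were called, and 0 members between the corpse groups; in libraries 3 and 4 alone 1925 genes were called between the corpse groups. With 1 library left out at a time, genes called numbered 6646 to 7307, 6016 to 6749 and 474 to 1200, and members called 25 to 27, 21 to 25 and 5 to 11. Between the corpse groups the lowest counts of genes were without STC1OE replicate 3 (474) or 4 (486) and control replicate 3 (529) or 1 (561). With any 1 library left out, 25 of 26, 20 of 25 and 5 of 9 members kept their call. Those lost at least once were Atp6v0a1 with STC1OE corpses, Atp6ap2, Atp6v1a, Atp6v1d, Fnip2 and Lamtor3 with control corpses, and Atp6v0d1, Atp6v1g1, Lamtor4 and Tfe3 between the corpse groups. DESeq2 called 25, 25 and 11 members, and other scaling factors moved the median of all genes by at most 0.0131 on the log2 scale; upper quartile factors called 27, 24 and 7 members and RLE factors 25, 25 and 12. Deviations from the group means correlated at −0.0434 to 0.0912 between same-numbered libraries of different groups. Differently numbered libraries gave −0.0915 to 0.0957, a like range, so these values do not settle whether the numbers pair samples. With the replicate number as a block 7300, 6712 and 1089 genes and 26, 25 and 10 members were called. The cause of these differences was not tested. Fits on fewer libraries also have fewer degrees of freedom, to the same extent for libraries 1 and 2 as for libraries 3 and 4. The shallowest member value was Atp6v1c1 with 189 counts, and differences below about 0.1 on the log2 scale rest on a small spread between libraries.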
